A study of Mus musculus with 3 samples.

Results

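This account covers 43 mouse genes whose products shorten the poly(A) tail of mRNA, remove its cap, degrade its body from either end, or carry out nonsense-mediated decay (NMD), the surveillance of mRNA with premature stop codons. The genes were taken by symbol from a fixed list and are 43 of the 55536 annotated genes in the deposited gene tables. The rule uses no measured value, but the list was chosen with earlier results of these data known. They fall into 13 genes of deadenylation, 14 of decapping and decay from the 5-prime end, 10 of the RNA exosome and 6 of NMD.

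The RNA came from primary macrophages grown from bone marrow of C57BL/6J mice. The cells received Lipid A, the Toll-like receptor 4 agonist of bacterial endotoxin, at 100 ng/ml over 12 h, then spent 12 h without it, and were stimulated again at 100 ng/ml over 25 min. Total RNA of the cytosolic fraction, 1 µg per library, was depleted of ribosomal RNA and sequenced in 3 libraries, biological replicates 1 to 3 of a single group. The labels give the 3 biosamples the same donor entry and no sex or age, so an SD here is the spread between these samples and may be technical. Untreated cells, unstimulated cells and the nuclear fraction were not analysed here, so levels and their spread are described and no response to Lipid A can be.

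Decay of most mRNA starts when the CCR4-NOT and PAN2-PAN3 complexes shorten the poly(A) tail. The message is then decapped by Dcp2 and digested by Xrn1 from the 5-prime end, or digested from the 3-prime end by the exosome, a ring of subunits with attached nucleases. NMD acts during translation, where the helicase Upf1 marks a ribosome that stops too far upstream of an exon junction or of the poly(A) tail. In macrophages these general enzymes are brought to cytokine mRNA by RNA-binding proteins such as tristetraprolin (Zfp36), and this sets how long inflammatory transcripts last.

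Total expected counts were 55517261, 21311556 and 45635014 in replicates 1, 2 and 3. Protein-coding genes held 29.6%, 40.4% and 34.8% of TPM (transcripts per 1000000, a level per transcript length), so a TPM in replicate 2 stands on a larger coding share. Levels below are TPM, as mean ± SD over the 3 libraries where no library is named. The 9 macrophage markers were all above 1 TPM, with a summed level of 5020 to 7727 TPM. None of the 23 markers of other cell types reached 1 TPM in every library, and their summed level was 0.91 to 1.19 TPM, with the neutrophil marker Ly6g among those at 0 counts. Nuclear RNA was highest in replicate 1, and its values are given with the comparison of libraries.

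All 43 genes had at least 1 TPM in each of the 3 libraries, a level that 42.1% of the 22015 nuclear protein-coding genes reached. The median over the 43 genes was 8.11, 8.77 and 7.89 TPM in replicates 1, 2 and 3, or 8.26 ± 0.458 (SD, n = 3). The 9275 protein-coding genes above 1 TPM in every library, called expressed genes below, had medians of 8.79, 11.6 and 9.37 TPM. The decay machinery thus sat in the middle of the expressed range: 19 of the 43 genes lay above the median of expressed genes, only Cnot1 and Ddx6 lay above percentile 75 of these genes, and none lay above percentile 90. The lowest mean was that of Pan2 (1.24 TPM) and the highest that of Ddx6 (38.6 TPM), a 31.1-fold range.

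**Figure D1:**
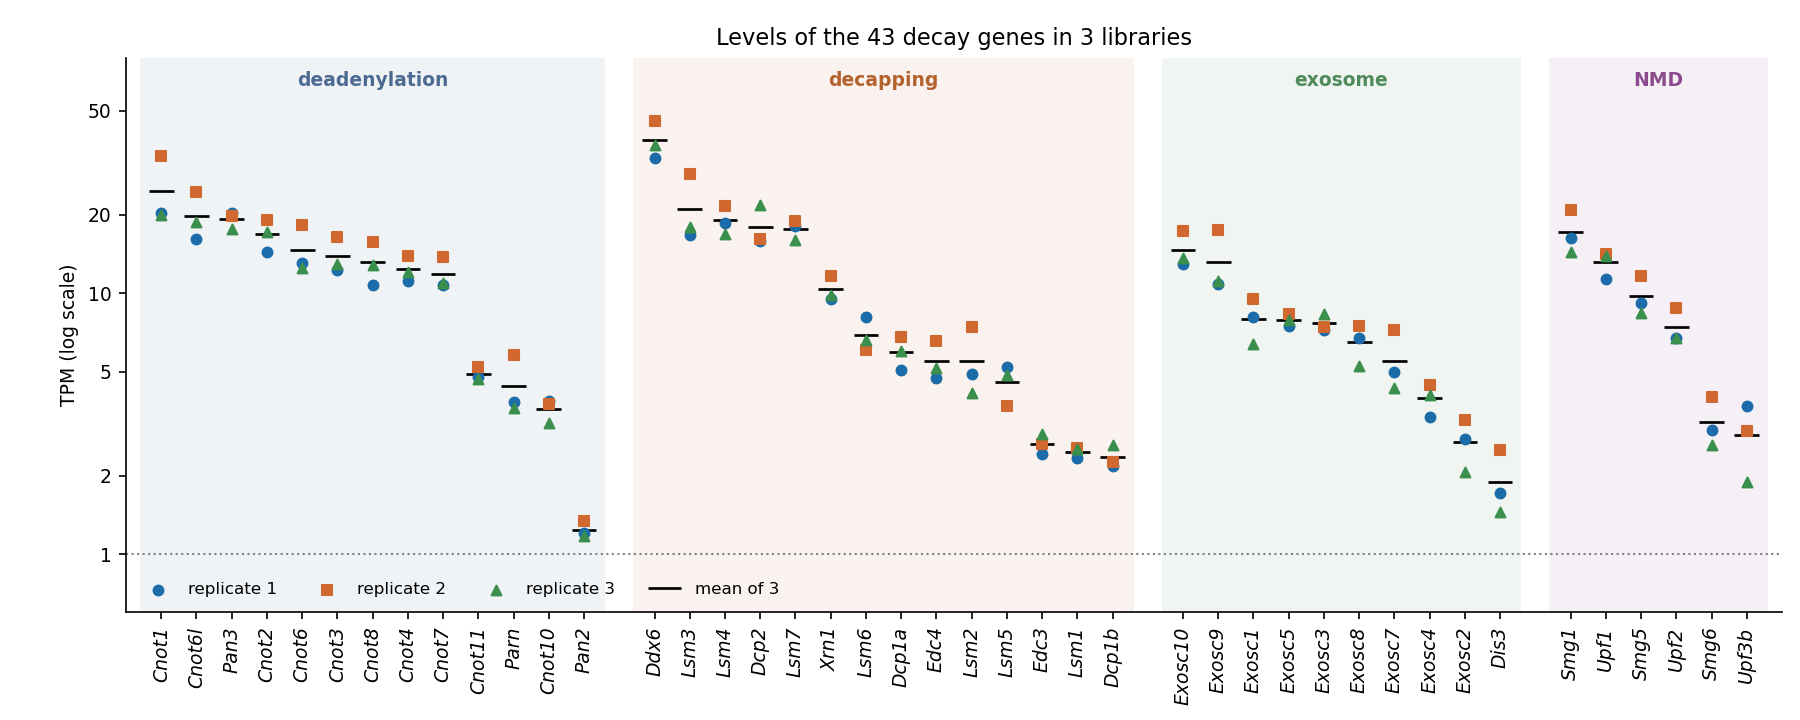
TPM (log axis) of each of the 43 genes in replicates 1, 2 and 3, ordered within role by the mean (black bar); the dotted line marks 1 TPM. All points lie above the line, Ddx6 is highest at 33.0 to 45.8 TPM, and Pan2 is lowest at 1.17 to 1.34 TPM.

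Among the deadenylation genes, with a median of 13.1 ± 2.38 TPM, the scaffold Cnot1 had the highest mean and Pan2, the catalytic subunit of PAN2-PAN3, the lowest. Cnot1, on which the other subunits of CCR4-NOT assemble, was measured at 20.3, 33.5 and 20.0 TPM in replicates 1, 2 and 3, and replicate 2 stood above the other libraries. In counts scaled to the sum over protein-coding genes and not divided by length (protein-coding CPM) Cnot1 had 233, 240 and 213, so the libraries were closer, and Cnot1-204, a transcript of 500 bases, held 20.2% of its TPM in replicate 2 from 48.5 expected counts. Cnot6l, one of the pair of CCR4-type deadenylases, was at 16.2, 24.4 and 18.8 TPM. Its paralog Cnot6 had 13.1, 18.3 and 12.5 TPM and was below Cnot6l in each library. The CAF1-type deadenylases Cnot7 (10.8, 13.8 and 10.9 TPM) and Cnot8 (10.8, 15.8 and 12.9 TPM) were nearly level with each other. Cnot2 averaged 16.9 TPM and Cnot3 13.9 TPM, the subunits of the NOT module, and the ubiquitin ligase Cnot4 averaged 12.4 TPM. Cnot11 (4.90 ± 0.28 TPM) and Cnot10, which form the module at the amino-terminal end of the scaffold, were lower. Cnot10 had 3.87, 3.76 and 3.19 TPM, so the means of the 10 Cnot genes spanned 6.82-fold.

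The 2 parts of the PAN2-PAN3 deadenylase differed far more than those of CCR4-NOT. Pan3, the adaptor that binds poly(A)-binding protein, had 20.3, 19.7 and 17.6 TPM. Pan2, the nuclease itself, had 1.21, 1.34 and 1.17 TPM, from 452, 150 and 319 expected counts, and every library placed it lowest of the 43 genes. Part of the Pan3 level lay on transcripts annotated as non-coding, described further on. The poly(A)-specific ribonuclease Parn averaged 4.42 ± 1.20 TPM.

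The 14 genes of decapping and 5-prime decay had a median of 6.69 ± 0.403 TPM. Ddx6, a DEAD-box helicase that links translational repression to decapping, was at 33.0, 45.8 and 37.0 TPM, the highest of the 43 genes in each library. The decapping enzyme Dcp2 had 15.8, 16.1 and 21.7 TPM, highest in replicate 3. Of its cofactors, Dcp1a had 5.06, 6.81 and 6.01 TPM and Dcp1b 2.17, 2.26 and 2.61 TPM. The scaffold Edc4 averaged 5.49 TPM and the decapping enhancer Edc3 2.65 ± 0.230 TPM, and the exonuclease Xrn1 averaged 10.4 ± 1.17 TPM.

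Lsm1 to Lsm7 form the ring that binds the shortened tail and activates decapping, with 1 copy of each protein, yet their mRNA levels per length spanned 8.51-fold. Lsm3 was highest with 16.7, 28.5 and 17.9 TPM, followed by Lsm4 (19.0 TPM) and Lsm7 (17.7 TPM). Lsm6 averaged 6.93 TPM, Lsm2 5.48 TPM and Lsm5 4.58 TPM. Lsm1, the subunit that sets the cytoplasmic ring apart from the nuclear one, was lowest with 2.33, 2.56 and 2.53 TPM, and its 3 values did not overlap those of any of the other 6 Lsm genes. Lsm8, which takes the place of Lsm1 in the nuclear ring, averaged 11.1 ± 2.36 TPM in this cytosolic RNA. Most Lsm mRNAs are short, with 27 to 132 expected counts for Lsm5, and levels per length of such genes depend most on the length the quantification assigns. Lsm1-201 is longer, at 2663 bases, and the rank of Lsm1 changed without division by length. In protein-coding CPM Lsm1 had 10.4, 8.53 and 9.84, above Lsm2, Lsm5 and Lsm7 and below Lsm3 and Lsm4 in each library. Lsm8 had 13.8, 7.05 and 13.5, below Lsm1 in replicate 2.

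The 10 exosome genes had a median of 6.77 ± 0.860 TPM. Exosc10, a nuclease known mainly from the nucleus, was highest with 12.9, 17.3 and 13.6 TPM, and the ring subunit Exosc9 followed with 10.8, 17.4 and 11.1 TPM. The other ring subunits were Exosc5 (7.90 TPM), Exosc8 (6.50 TPM), Exosc7 (5.51 TPM) and Exosc4 (3.95 TPM). The cap subunits were Exosc1 (7.99 TPM), Exosc3 (7.66 TPM) and Exosc2, which had 2.75, 3.28 and 2.06 TPM. Dis3, the processive nuclease of the core, was lowest with 1.71, 2.50 and 1.45 TPM. The 8 ring and cap genes spanned 4.87-fold in their means.

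A ring subunit outside the 43 genes, Exosc6, was listed at 0 expected counts in all 3 libraries and at 0 in the read-based tables too. Its single exon of 1326 bases (chr8:111056339-111057664, plus strand, mm10) lies wholly inside the last exon, 2646 bases long, of Aars-201, a transcript of the alanyl-tRNA synthetase gene Aars on the same strand. Aars-201 received 15226, 5200 and 13247 expected counts in replicates 1, 2 and 3. Reads from Exosc6 and from that exon of Aars cannot be told apart in this annotation, so the 0 is not a measurement of Exosc6.

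The 6 NMD genes had a median of 8.59 ± 1.43 TPM. Smg1, the kinase that phosphorylates Upf1, had 16.3, 20.8 and 14.3 TPM, and the helicase Upf1 had 11.4, 14.1 and 13.9 TPM. Smg5, which binds phosphorylated Upf1, had 9.17, 11.7 and 8.43 TPM, and Upf2 averaged 7.41 TPM. Smg6, the endonuclease that cuts near the premature stop, had 2.99, 4.01 and 2.61 TPM. Upf3b, which joins Upf2 to the exon junction complex, had 3.71, 2.96 and 1.89 TPM.

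For 5 pairs of related genes the ratio was taken within each library, where the library's coding share cancels. Every pair had the same order of TPM in all 3 libraries. The two-sided exact sign-flip test gave p = 0.25 for each, not adjusted over the 5 pairs, and this is the smallest that 3 libraries allow. Cnot8 exceeded Cnot7 by little, with a log2 ratio of Cnot7 to Cnot8 of -0.14 ± 0.12 and a value near 0 in replicate 1. Cnot6l was 1.35-fold above Cnot6 (log2 ratio -0.44 ± 0.14), and the log2 ratio was -0.40 in expected counts. Cnot6l-206, a transcript of 421 bases, held 21.3%, 17.1% and 23.1% of Cnot6l TPM in replicates 1, 2 and 3. These shares came from 62.7, 21.2 and 62.2 expected counts. In replicate 1 the transcript held more TPM than the gap between Cnot6l and Cnot6, so the order in that library rested on it. In replicates 2 and 3 it held less than the gap. Dcp1a was 2.53-fold above Dcp1b (1.34 ± 0.22), and the log2 ratio was 2.30 in expected counts, which are not divided by length. The cytoplasmic exosome nuclease Dis3l, at 4.46, 5.62 and 4.91 TPM, was 2.71-fold above Dis3 (log2 ratio of Dis3 to Dis3l -1.44 ± 0.30). Upf3a, with 5.91, 6.91 and 6.56 TPM, was 2.35-fold above Upf3b (-1.23 ± 0.56), and here the ratio ranged from -0.67 in replicate 1 to -1.80 in replicate 3. The difference between the genes of a pair was larger than the SD between libraries in all 5 pairs, by the least margin for Cnot7 and Cnot8, whose order turns when expected counts are not divided by length (0.10).

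**Figure D2:**
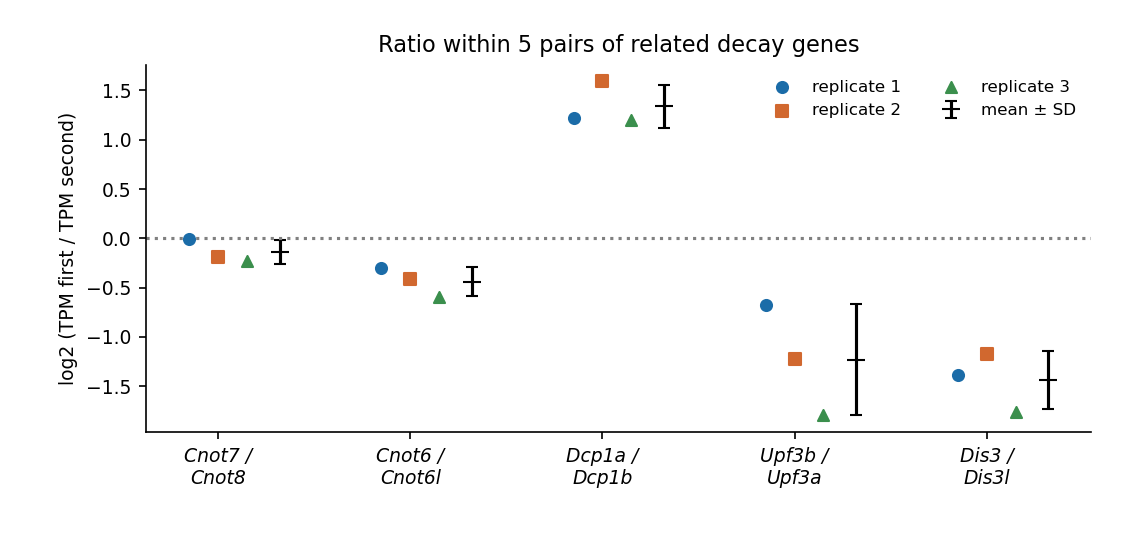
log2 ratio of TPM, first gene over second, in each library (coloured points) with mean ± SD (black, n = 3) for 5 pairs. Dcp1a over Dcp1b is the only pair above 0, and Upf3b over Upf3a has the widest spread, from -0.67 to -1.80.

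Differences between libraries were compared in protein-coding CPM, the expected counts divided by the sum over nuclear protein-coding genes and multiplied by 1000000. For each library the log2 ratio to the mean of the other libraries was taken with 0.1 added. In replicate 1, 6 of the 43 genes were lower than in the others, where 32.8% of 9604 protein-coding genes were. In replicate 2 the count was 24 of 43 beside 53.2%, and in replicate 3 it was 33 of 43 beside 64.4%. These counts moved with the scaling. In replicate 1, 37 of the 43 genes were higher in protein-coding CPM, 25 with TMM scaling (47.1% of all genes) and 24 with DESeq2 size factors (45.2%). In replicate 3 the genes that were higher numbered 10 in protein-coding CPM, 18 with TMM scaling (50.7% of all genes) and 20 with DESeq2 size factors (51.9%). The median log2 ratio of the 43 genes was 0.19, -0.01 and -0.13 in replicates 1, 2 and 3, and that of all genes 0.09, -0.02 and -0.09. With TMM scaling the medians in replicate 1 were 0.08 for the 43 genes and -0.02 for all genes. Only Upf3b, in replicate 1, lay beyond a log2 ratio of 1 (1.04), as did 115 of the 9604 genes in that library. Fewer cells of a type and less RNA per cell cannot be told apart in such bulk RNA.

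By role, all 10 exosome genes were higher in replicate 1 (median 0.27) and all 13 deadenylation genes were lower in replicate 3 (median -0.15), but both counts depended on the scaling. In replicate 1, 7 of 10 exosome genes were higher both with TMM scaling, beside 47.1% of all genes, and with DESeq2 size factors, beside 45.2%. In replicate 3, 4 of 13 deadenylation genes were higher under either scaling, beside 50.7% and 51.9% of all genes. In decapping, 10 of 14 genes were lower in replicate 2 (median -0.24), with 9 of 14 lower under TMM scaling, beside 4805 of all 9604 genes. In no library did all genes of a role lie on 1 side under each of the scalings tried.

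**Figure D3:**
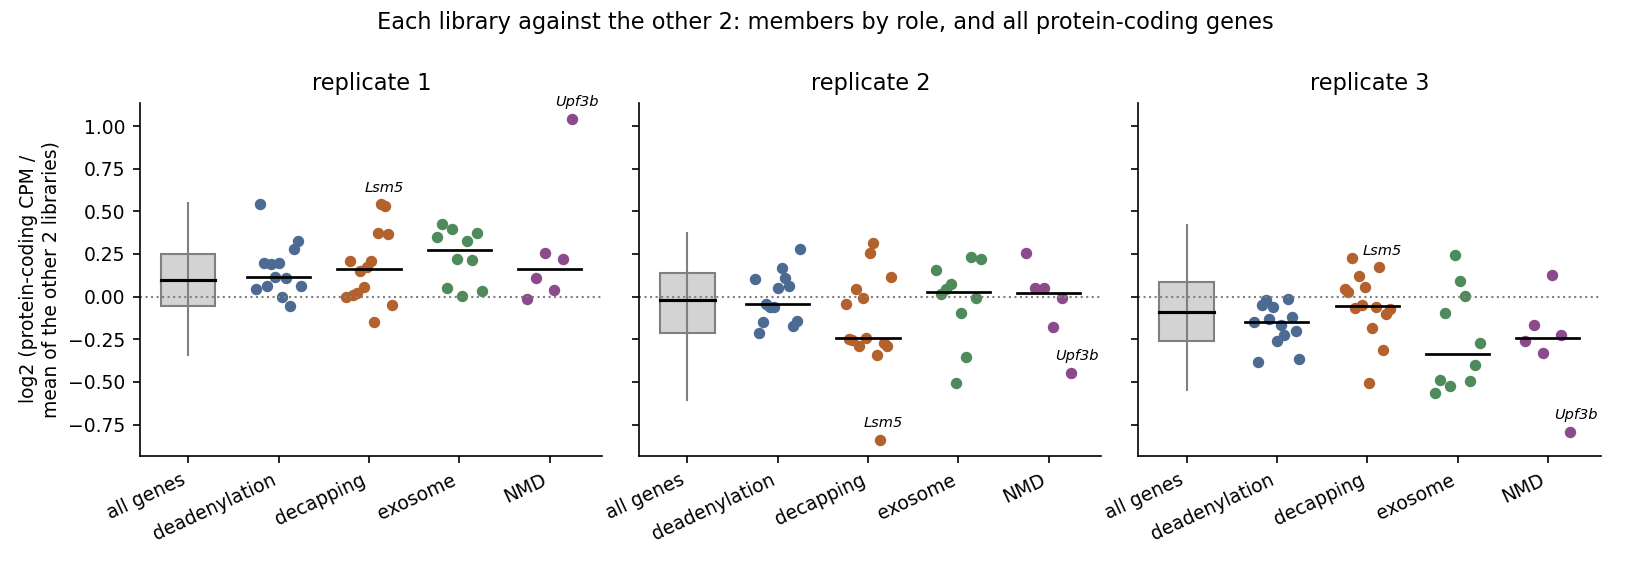
log2 ratio of protein-coding CPM in each library to the mean of the other 2, for the genes of each role (points; black bar, median) and for 9604 protein-coding genes (box, quartiles; line, 5th to 95th percentile). Upf3b stands apart at 1.04 in replicate 1 and Lsm5 at -0.84 in replicate 2.

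Upf3b, an X-linked gene (chrX:37091678-37110322, minus strand), had the widest range, 2.28-fold, with 14.5, 7.61 and 6.34 protein-coding CPM from 694, 149 and 257 expected counts. The exact Poisson 95% interval of replicate 1 (13.4 to 15.6) did not meet those of replicates 2 (6.44 to 8.94) and 3 (5.59 to 7.16), and these intervals cover counting error only. Its main coding transcript, Upf3b-201, carried the difference with 12.8, 6.91 and 6.21 protein-coding CPM, and the non-coding Upf3b-203 had 1.52, 0.364 and 0.0681. The log2 ratio in replicate 1 was 0.93 with TMM scaling and 0.92 with DESeq2 size factors. The 284 X-linked protein-coding genes had a median log2 ratio of 0.11 in replicate 1, beside 0.09 for all genes. This check of the X chromosome was chosen after the values of Upf3b had been seen.

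The next widest were Lsm5, Dis3, Exosc2 and Exosc1. Lsm5 spanned 2.00-fold, with 2.75, 1.38 and 2.34 protein-coding CPM from 132, 27 and 95 counts, and the interval of replicate 2 (0.909 to 2.01) met that of replicate 3 (1.90 to 2.86) but not that of replicate 1 (2.30 to 3.27). Dis3 had 13.0, 12.0 and 8.39 protein-coding CPM, Exosc2 had 7.59, 6.59 and 4.91, and Exosc1 had 13.7, 11.4 and 8.95. These 3 exosome genes were lowest in replicate 3 and the range of each was 1.53- to 1.55-fold. The remaining 38 genes varied less. The biological coefficient of variation, the spread between replicates beyond counting error as estimated by edgeR, had a median of 0.155 over the 43 genes and 0.155 over expressed genes. It was 0.29 for Upf3b, above the 0.23 that the trend gave for its level, and 0.37 for Lsm5, where the trend gave 0.40.

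RNA known to stay in the nucleus also differed between the libraries and was highest in replicate 1. Malat1 had 8329, 3480 and 1444 protein-coding CPM, Neat1 924, 212 and 152, and Xist 803, 42.3 and 23.1. In TPM replicates 1 and 2 were closer for Malat1 (1156, 976 and 246) and Neat1 (60.6, 46.0 and 26.1). Xist, at 30.15, 2.27 and 1.01 TPM, set replicate 1 apart on this scale too. The labels give no sex of the samples, so its part in the Xist values was not tested. Within 4 of the 43 genes, 5 annotated genes of unconfirmed status lie on the same strand without touching an exon: Gm45762 in Cnot1, E030022I16Rik and Gm47234 in Ddx6, Gm38375 in Xrn1 and Gm45084 in Smg1. Their summed counts were 480, 45 and 43, or 10.01, 2.30 and 1.06 protein-coding CPM, and all 5 were highest in replicate 1. The share of a gene's TPM on transcripts annotated as retaining an intron averaged 6.59%, 3.34% and 2.95% over the 43 genes and 6.13%, 4.21% and 3.56% over expressed genes. It was highest in replicate 1 for 26 of the 43 genes, beside 45.8% of expressed genes. The part of unspliced or nuclear RNA in the levels of the 43 genes in replicate 1 was not tested.

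The transcript tables divide each gene over its annotated transcripts, and some of these are themselves annotated as NMD targets because their reading frame ends well upstream of the last exon junction. On average 3.45%, 5.35% and 3.91% of TPM in replicates 1, 2 and 3 fell on such transcripts (4.24 ± 0.989% over the 43 genes), beside 3.04 ± 0.0854% over expressed genes. The median share was 0% in each library both for the 43 genes and for expressed genes. The average over the 43 genes leaned most on Dis3 and Edc3, whose levels were 1.89 and 2.65 TPM. The mean share was at least 10% in 7 of the 43 genes, beside 8.51% of expressed genes. These were Dis3 (51.1%), Edc3 (38.0%), Smg6 (17.1%), Cnot1 (14.9%), Pan3 (14.3%), Cnot2 (12.3%) and Exosc5 (11.9%). Dis3, Edc3, Smg6 and Exosc5 are described by transcript here because of these values, which had been seen when they were chosen.

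Edc3 and Dis3 show how such transcripts are built, and their sequences across the altered junction are printed from the annotated transcripts of GENCODE release M21, 5′ to 3′. Edc3-202 leaves out exon 3 of Edc3-201 (chr9:57715948-57716267, plus strand), which has 320 bases, not a multiple of 3, and the frame then meets a stop codon 7 bases into the next exon. Dis3-205 leaves out exon 13 of Dis3-201 (chr14:99085874-99085958, minus strand), with 85 bases, and meets a stop 28 bases on. Dis3-203 leaves out exon 3 of Dis3-201 (chr14:99097585-99097778) and carries an extra exon of 68 bases (chr14:99099119-99099186), with a stop 52 bases past it. The first 40 bases of each line precede the junction, those of Edc3-202 and Dis3-205 are shared with the reference line under them, and capitals mark the premature stop codon.
Edc3-202: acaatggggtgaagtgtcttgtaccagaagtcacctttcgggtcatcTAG
Edc3-201: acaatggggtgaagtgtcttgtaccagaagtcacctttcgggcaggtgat
Dis3-205: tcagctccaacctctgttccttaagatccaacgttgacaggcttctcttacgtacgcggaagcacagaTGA
Dis3-201: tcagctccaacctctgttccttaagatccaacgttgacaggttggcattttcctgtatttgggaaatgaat
Dis3-203: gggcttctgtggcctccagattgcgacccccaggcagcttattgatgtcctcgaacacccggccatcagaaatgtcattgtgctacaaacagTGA
From the stop codon to the last exon junction there are 698 bases in Edc3-202, 1007 in Dis3-205 and 2316 in Dis3-203.

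**Figure D4:**
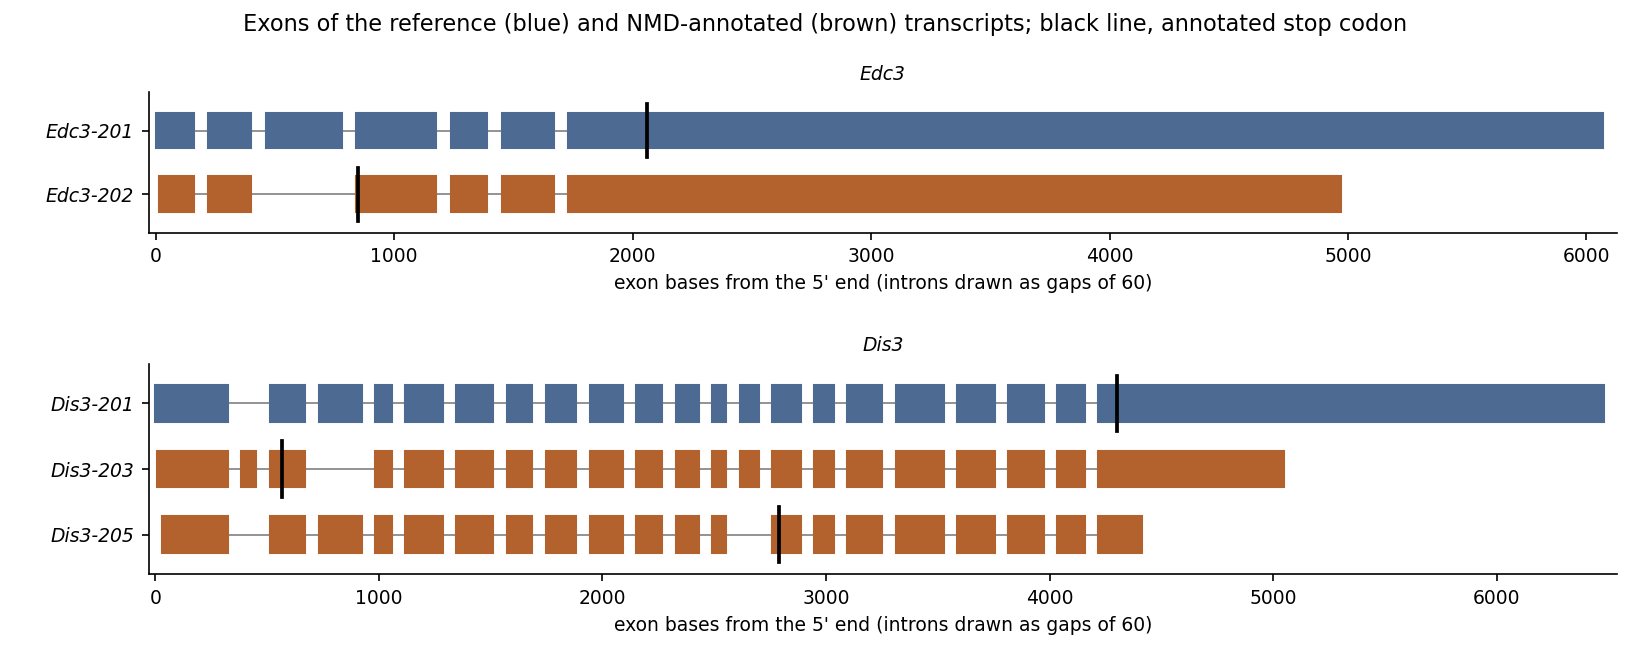
Exons to scale along the transcript (introns as gaps of 60) for the reference (blue) and NMD-annotated (brown) transcripts of Edc3 and Dis3, with the stop codon as a black line. The stops of the brown transcripts lie upstream of many junctions, and the last exons are shorter than in the reference.

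Edc3-202, which ends the frame early in this decapping enhancer, took 27.3%, 34.1% and 52.8% of Edc3 TPM in replicates 1, 2 and 3, from 244, 97.6 and 402 expected counts. The read-based tables gave 28.9%, 37.5% and 51.4%, the same order of libraries. In Dis3 the coding Dis3-201 took 54.4%, 26.3% and 44.2%. Dis3-205 took 30.4%, 26.7% and 32.7%, and Dis3-203 took 11.1%, 39.4% and 12.9%, highest in replicate 2. Expected counts were 129, 48.9 and 86.1 for Dis3-205 and 58.7, 89.2 and 40.95 for Dis3-203. The read-based shares were 31.7%, 47.3% and 48.7% for Dis3-205 and 8.91%, 30.1% and 11.5% for Dis3-203. The leading coding transcript of Dis3, already the lowest exosome gene, thus held at most 54.4% of its TPM in any library, and at most 26.7% in the read-based tables.

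These shares have a limit that the tables cannot lift. The NMD-annotated transcripts also end earlier than the reference: the last exon has 3243 bases in Edc3-202 and 4339 in Edc3-201, and 196, 832 and 2260 bases in Dis3-205, Dis3-203 and Dis3-201. The tables hold no counts of reads across junctions, so the part of the exon choice and the part of the 3-prime end in each share were not tested. Dis3 also overlaps Pibf1 on the opposite strand (838, 191 and 466 counts) and Edc3 overlaps Clk3 (2350, 870 and 1727 counts). In all, 14 of the 43 genes overlap another protein-coding gene, 13 of them on the opposite strand, and whether counting used strand is not given in the sources used here. Such overlaps were not counted over all protein-coding genes, so the number is a limit on these levels and not a trait of the 43 genes.

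The size of the NMD-annotated share was not the same in both quantifications for every gene. Smg6-202 took 7.36%, 30.4% and 13.4% of Smg6 TPM in the transcriptome-alignment tables but at most 1.76% in the read-based ones. Smg1 and Lsm1 went the other way and reached a mean of 10% in the read-based tables only. The NMD-annotated share of Smg1 was 0% in each library in the first and 12.3%, 12.6% and 13.8% in the second, and that of Lsm1 was 3.86%, 0% and 0% in the first and 19.0%, 0% and 26.7% in the second. Exosc5-205, by contrast, took 8.03%, 21.2% and 6.47% in the first and 8.84%, 21.6% and 6.78% in the second, highest in replicate 2 in both. In the first these shares came from only 24.9, 21.4 and 16 expected counts. In Pan3 the NMD-annotated share was 15.1%, 14.7% and 13.0%, most of it on Pan3-208 and Pan3-205.

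**Figure D5:**
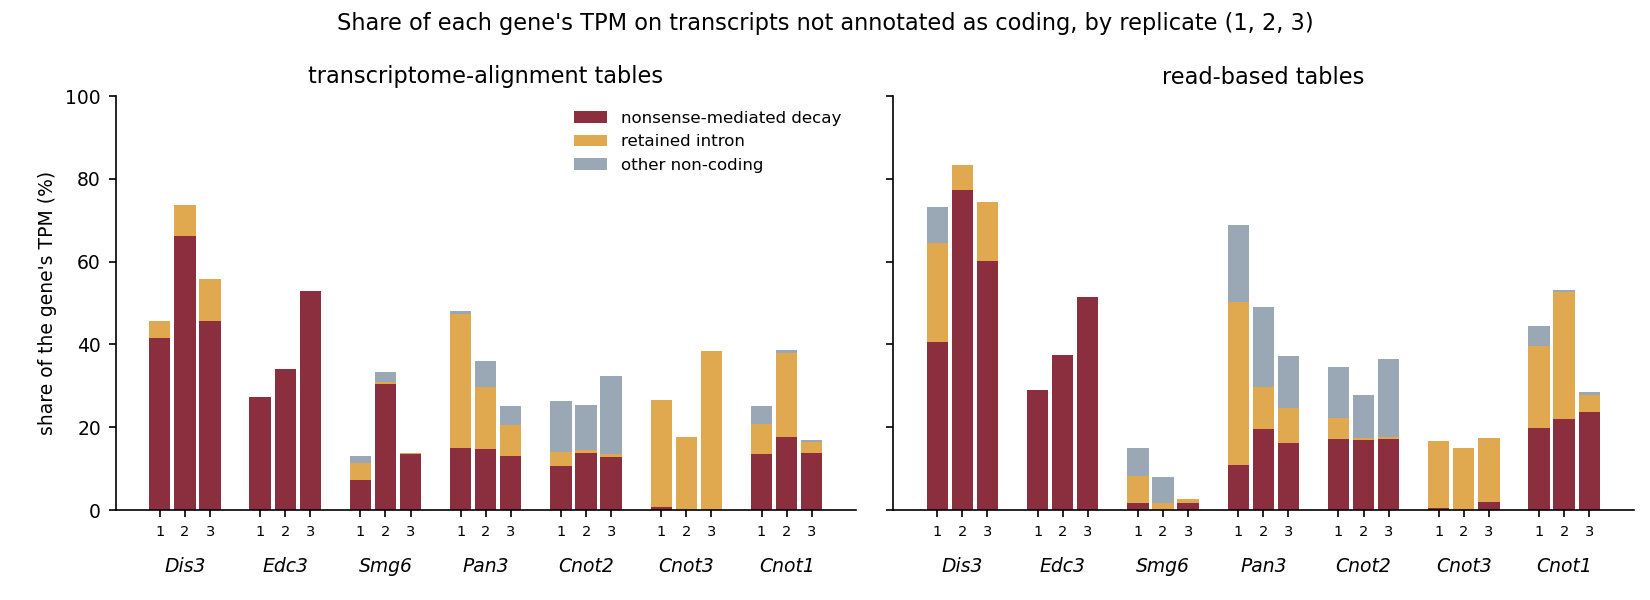
Share of each gene's TPM on transcripts annotated as NMD targets, as retaining an intron or as otherwise non-coding, in replicates 1, 2 and 3, from the transcriptome-alignment tables (left) and the read-based tables (right). The Edc3 share runs from 27.3% to 52.8% in the left panel and from 28.9% to 51.4% in the right, while the NMD-annotated share of Smg6 is at most 1.76% in the right panel.

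Over all non-coding classes the share was 10.1 ± 1.56% for the 43 genes and 11.3 ± 1.41% for expressed genes. In the transcriptome-alignment tables, among genes with at least 5 TPM, it was largest in Pan3 (48.1%, 36.0% and 25.2%), Cnot2 (26.4%, 25.4% and 32.4%), Cnot3 (26.5%, 17.7% and 38.5%), Cnot1 (25.1%, 38.6% and 16.9%), Dcp1a (20.0 ± 0.233%) and Smg5 (15.6 ± 7.51%). In Cnot3 most of it lay on the retained-intron transcripts Cnot3-202 and Cnot3-205, and in Dcp1a the largest class was processed transcript, at 15.4%. The read-based order differed. Pan3, Cnot1 and Cnot2 still led, but Cnot7 (mean 28.8%) and Lsm2 (21.4%) stood above Smg5 (20.5%) and Cnot3 (16.4%). Cnot3-202 took 1.01%, 2.07% and 0% there, and the Dcp1a share was 33.6%, 22.7% and 19.8%. The Pan3 share was highest in replicate 1 in both quantifications, with 69.0%, 49.0% and 37.3% in the read-based tables. On coding transcripts alone Pan3 had 10.5, 12.6 and 13.1 TPM and Pan2 0.89, 1.04 and 1.08 TPM, so the order of the adaptor and the nuclease held in each library.

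In 5 genes the most abundant coding transcript was not the same in every library: Cnot2, Cnot6l, Pan2, Pan3 and Lsm4. In the read-based tables these genes were Cnot2, Cnot6, Pan2, Pan3 and Lsm3. The same count over expressed genes was not made, so how usual such a change is cannot be said. The sharpest case was Cnot2, where Cnot2-204 took 0%, 43.1% and 0% of TPM in replicates 1, 2 and 3 and Cnot2-210 took 19.7%, 0% and 25.9%, while Cnot2-203 took 52.1%, 31.6% and 41.6%. The read-based tables gave Cnot2-204 0%, 32.8% and 0%. In Pan2, Pan2-203 had 45.0%, 73.1% and 43.6% and Pan2-201 had 25.0%, 4.48% and 48.7%, from at most 203 counts per transcript, so Pan2-203 led in replicates 1 and 2 and Pan2-201 in replicate 3. In the read-based tables Pan2-201 was ahead in replicate 1 too, by 27.8% to 26.6%. Lsm4-205 overtook Lsm4-201 in replicate 2 only (55.5% against 41.3%), and the read-based tables did not show that change of order. In Cnot6l the long Cnot6l-210 (38.0%, 34.3% and 31.9%) and Cnot6l-202 (29.1%, 39.6% and 37.2%) were close, while in the read-based tables Cnot6l-202 led in every library, by the least in replicate 2 (43.7% against 25.3%). Close to each other too were Pan3-201 (12.2%, 21.5% and 19.0%) and Pan3-209 (14.2%, 12.2% and 15.5%).

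Whether these decay genes carry the signals they act on was read from the most abundant coding transcript of each gene. The 3-prime UTR had a median length of 956 bases in the 43 genes and 909 in 9055 expressed genes. Roles differed widely in this description, from 230 bases in the exosome genes (1 of 10 over 1000 bases) to 1246 in the NMD genes (4 of 6 over 1000 bases) and 7240 in Dcp2 alone. Long UTRs and upstream start codons are features known to make an mRNA a target of NMD. At least 1 ATG upstream of the start codon was present in 48.8% of the 43 genes and 47.5% of expressed genes.

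The heptamer TATTTAT, the core of the site bound by the tristetraprolin family (searched on the sense strand), occurred in the 3-prime UTR of 9 of the 43 genes, or 20.9%, beside 26.6% of expressed genes. The 9 were Cnot3, Cnot6, Cnot7, Cnot8, Pan3, Dcp1a, Dcp2, Edc3 and Xrn1, with none among the exosome and NMD genes. They include 3 of the 4 catalytic deadenylases of CCR4-NOT, the enzymes that tristetraprolin recruits, and the sites of these 3 are shown with 10 bases on either side and the heptamer in capitals. They lie in Cnot6 at chr11:49672370-49672396 and chr11:49671567-49671593 (minus strand), in Cnot7 at chr8:40493116-40493142 (minus strand) and in Cnot8 at chr11:58118538-58118564 (plus strand), all mm10. The leading transcript of the other deadenylase gene, Cnot6l-202, holds none, and the longer Cnot6l-210 was not searched. The 3-prime UTR has 3690, 1447 and 1006 bases in Cnot6, Cnot7 and Cnot8. The median is 230 in the exosome genes, 1246 in the NMD genes and 909 in expressed genes. The shares were not matched for UTR length, so its part in them was not tested. A match is a description of the letters and not evidence of binding.
Cnot6 first site: tggtggtaatTATTTATgctttgagaa
Cnot6 second site: gctagtattaTATTTATatacagggtc
Cnot7 site: tttataaacaTATTTATgatgttcttg
Cnot8 site: ttgtaaatatTATTTATgtttttaatt
Of the RNA-binding proteins that recruit the machinery, the tristetraprolin family had more mRNA per length than any of the 43 genes in each library. Zfp36 was at 189, 193 and 188 TPM, Zfp36l1 averaged 70.3 TPM and Zfp36l2 50.4 TPM. Regnase-1 (Zc3h12a) averaged 11.0 TPM and the roquins Rc3h2 and Rc3h1 7.42 and 6.72 TPM, within the range of the 43 genes.

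Promoters were read from RefSeq (GRCm38.p6), 250 bases before to 50 after each gene start, for the 35 of the 43 genes that matched (44 promoters). None of the 44 held TATAAA, which 6.76% of promoters of expressed genes and 13.6% of all promoters held. The motif of the transcription factor NRF1 was in 27.3% of the 44, in 11.3% of promoters of expressed genes and in 4.60% of all 32851 promoters. CCGGAAG, the ETS motif, was in 25.0%, 20.1% and 8.86%, and CCAAT was in 29.5%, 37.6% and 37.4%. All were searched on both strands. The median GC content was 64.2% in the 44, 61.0% in expressed genes and 52.7% in all, and its part in these shares was not tested. The NRF1 motif is shown in capitals, with 10 bases on either side, for 3 of the 11 genes that hold it. They are Pan3 (chr5:147430155-147430184, plus strand), Lsm7 (chr10:80855239-80855268, minus strand) and Cnot8 (chr11:58103909-58103938, plus strand).
Pan3: cgcgccactcGCGCAGGCGCagaggcggcg
Lsm7: cgccgaggctGCGCGTGCGCaaaggcctcc
Cnot8: ttctcgctctGCGCCTGCGCagggaggcgg

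A further 61 genes of the same pathways, among them poly(A)-binding proteins, Tob and Btg adaptors, exosome cofactors, exon junction proteins, terminal uridylyl transferases and Argonaute proteins, gave the setting of the 43. Of these, 58 reached 1 TPM in each library, and the median over the 61 was 9.32 ± 1.00 TPM. The highest were Pabpc1, which coats the poly(A) tail and had 256, 394 and 220 TPM, and Pnrc2, a decapping coactivator linked to Upf1, at 42.98 ± 5.44 TPM. The lowest after Exosc6 was the deadenylase Noct, with 0.52, 1.03 and 0.27 TPM. The level of Pabpc1 was thus above that of any of the 43 genes in every library, whereas Pabpc4, another poly(A)-binding protein gene, had 4.21, 4.43 and 3.27 TPM.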

How the data were processed

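Cytosolic total RNA of 3 libraries was analysed. For every library the deposited tables hold, per the file headers, expected counts and TPM by gene and by transcript, and, in another table by transcript, estimated counts with their own TPM. Per the deposited description files, build mm10 and GENCODE release M21 were used, with expected counts taken from reads aligned to transcripts and estimated counts from the reads themselves (the read-based tables). Program names were not given in the sources used here. Of 81881 identifiers, 55536 matched the annotation; the others held 0.194%, 0.247% and 0.0227% of counts. A count of 0 allows 3 counts, or 0.0626, 0.153 and 0.0740 protein-coding CPM.

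Gene members and lists were chosen with earlier results of these data known. Named genes were the 2 highest and 2 lowest of each role by TPM, 5 pairs of related genes (another pair is not reported here), the 5 widest ranges of protein-coding CPM, the 6 largest non-coding shares at a mean of at least 5 TPM, genes whose leading coding transcript differed between libraries, and the 2 highest and 2 lowest other pathway genes. Expected counts were rounded for edgeR 4.0.16 (R 4.3.3; intercept only, TMM, its expression filter). The same dispersion from DESeq2 1.42.0 served as a second estimate. Remaining steps ran in Python 3.11.15 with pandas 2.3.3, numpy 2.4.6 and scipy 1.17.1, and figures with matplotlib 3.10.9. The dispersion and ratio steps were tested on simulated data. Alternatives covered quantification, scale, limits, pseudocounts and leaving out each library.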

Additional observations from a re-analysis of the deposited data

How the results depend on the processing

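Of 116 values under other settings, 21 moved, 4 changed sign and 91 did neither, where moving means by more than 1.5 times for a count of genes and by more than the SD between libraries for other values; ratios of gene pairs were judged by direction alone. Among these, Dcp1a to Dcp1b went from 1.34 to 2.30 in expected counts and to 1.05 with a pseudocount of 1, and Dis3 to Dis3l from -1.44 to -1.07 with that pseudocount, each by more than the SD. All 43 genes reached 1 TPM in every library used when TPM was rescaled to protein-coding genes and without each library in turn. In the read-based tables as deposited 30 did so, and 43 once the read-based TPM was rescaled too. A limit of 5 TPM was reached by 27. The share of all protein-coding genes was not counted under these settings. Protein-coding genes held 20.5%, 21.4% and 7.95% of read-based TPM in replicates 1, 2 and 3. TPM depends on what else is counted: the median of the 43 genes was 4.14 TPM in the read-based tables, 23.9 when TPM was rescaled to nuclear protein-coding genes and 24.3 when the read-based TPM was rescaled too, settings of which the rescaled ones were added after the data had been seen. Read-based medians by role were 7.002 TPM for deadenylation, 3.74 for decapping, 3.56 for the exosome and 4.04 for NMD, and rescaled medians were 37.5, 19.4, 19.6 and 24.6 TPM. The log2 ratio of Cnot7 to Cnot8 became 0.10 with expected counts. The median ratio of replicate 2 to the others changed sign with TMM (0.0090), with DESeq2 size factors (0.014) and without replicate 1 (0.075; -0.13 without replicate 3), all near 0. The mean non-coding share was 14.2% in the read-based tables and 7.16% in counts. The mean NMD-annotated share was 5.29% in the read-based tables, 3.20% in counts and 3.16% of summed TPM. The median coefficient of variation was 0.145 by DESeq2 and 0.158 to 0.162 with 1 library left out. For the moved values the cause was not tested, apart from the change of denominator in the rescaled ones. No paired analysis was possible because the series has 1 group. Depth limits Lsm5 most, with 27 counts in replicate 2.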

Other observations

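Within Cnot1 the quantifications placed the NMD-annotated share on different transcripts. Cnot1-212, 956 bases long, took 9.25%, 8.92% and 10.9% of Cnot1 TPM in the transcriptome-alignment tables and was at or near 0% in the read-based ones. Cnot1-216, 7479 bases long, took 3.15%, 8.50% and 2.91% in the first and 16.1%, 21.7% and 23.2% in the second. The retained-intron transcript Cnot1-204, 500 bases long, held 20.2% of Cnot1 TPM in replicate 2 from 48.5 expected counts and 0% in the other libraries, and 7.80%, 28.4% and 0.126% in the read-based tables. These values were picked after they had been seen.

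Dcps, the scavenger enzyme that degrades the cap left by the exosome, had 5.35, 5.33 and 5.30 TPM, but 10.6, 7.61 and 9.10 protein-coding CPM. Pelo, which rescues stalled ribosomes, had 3.69, 3.79 and 3.70 TPM, and 9.59, 7.10 and 8.29 protein-coding CPM, so the even values held on the TPM scale alone. Both were singled out after their values had been seen.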
